A study of Mus musculus with 34 samples.

Results

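The genes described here are 43 interferon-stimulated and class I presentation genes, measured in the hearts of female C57BL/6 mice after instillation of Printex 90, a carbon black nanoparticle, into the trachea. They were chosen as a list of gene symbols, and an array probe was assigned to a gene when its RefSeq accession belonged to that gene. Of the 43 genes, 39 were matched to at least 1 probe, and all 39 passed the filter on dim probes, out of 19798 genes tested in all. The 39 genes had 56 probes, of which 53 passed, and Mx1, Mx2, Xaf1 and Dtx3l were not matched to a probe.

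Each of 34 arrays held heart RNA of 1 mouse, labelled with Cy5, against a Cy3-labelled reference RNA pooled from many mouse tissues. The mice were acquired at 5 to 6 weeks of age. Exposed mice received 162 µg of carbon black in 40 µl of vehicle, followed by 150 µl of air, and control mice received the vehicle without particles. The vehicle, which both arms shared, was 0.9% NaCl in water with 10% acellular lung lavage fluid from C57BL/6 mice, so that the control was an instilled animal and not an untouched one. Hearts were sampled at day 1 (6 vehicle and 6 carbon black arrays), day 3 (6 and 5) and day 28 (6 and 5) as a random section that held both ventricles. All 8 cardiomyocyte markers examined were well above background on the 34 arrays, and their mean log2 ratios to the reference ran from 1.68 for Ryr2 to 6.91 for Pln. Between 42.8% and 66.6% of the spots of an array had a heart signal well above background, and none of the probes used for the genes described was saturated. In a section of whole tissue, fewer cells of a type and less RNA per cell cannot be told apart. On 5 arrays atrial transcripts were low, and 1 of these, carbon black day 1 replicate 6, was also low for fibroblast (-2.03), endothelial (-2.18) and macrophage (-1.32) markers. These scores are mean deviations of the log2 ratio from the median array.

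Type I interferons, made by most cells when they sense foreign nucleic acid, act through transcription factors that include Stat2 and Irf9 and bind an element called ISRE. Interferon gamma, made by T cells and NK cells, acts at an element called GAS. The induced genes include sensors of viral RNA, proteins that block viral replication or release, ubiquitin ligases, GTPases that attack vacuoles holding microbes, and the immunoproteasome and transporter subunits that load peptides onto class I molecules. In heart, cardiomyocytes, endothelial cells, fibroblasts and resident macrophages keep a low tonic level of many of these transcripts, and lymphocytes keep a high level of the immunoproteasome.

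No gene of the 39 passed the threshold in any of the 10 comparisons made: carbon black against vehicle on each day and as the mean of the 3 days, the vehicle groups of different days against each other, and the differences of the carbon black effect between days. The test was limma's moderated test with Benjamini-Hochberg adjustment over the 19798 genes and a threshold of 0.05. Over all genes it called 0% in 9 of the comparisons and 1.95% for the mean of the 3 days (1.32% higher and 0.626% lower). A count of 0 of 39 therefore lies near the background in every comparison. At an unadjusted p under 0.05, 2 genes were higher and 4 lower for the mean of the 3 days, where 10.8% and 7.49% of all genes were, and the counts of the other comparisons are given below. The member nearest to the threshold was Bst2, at an adjusted p of 0.0521 for the mean of the 3 days.

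At the level of single hearts the genes differed most in where they stood against the reference. The log2 ratio, on which a value above 0 means more transcript in heart than in the reference, is comparable between arrays for 1 gene but not between genes, since each gene has its own level in the reference. The mean over 34 arrays was above 0 for 16 genes and below 0 for 23. The highest were the guanylate-binding GTPases Gbp2 (1.63) and Gbp3 (1.42), the antiviral enzyme viperin, Rsad2 (1.40), the RNA sensor MDA5, Ifih1 (1.24), and Ifit3 (1.21). The lowest were Usp18 (-1.98), the protease that removes Isg15 from proteins and damps the type I receptor, Ifi44 (-1.48), Oasl1 (-1.44), Isg15 itself (-1.05) and Irf7 (-0.97), the amplifier of type I interferon transcription. Of the 39 genes, 35 were well above background on all 34 arrays. The others were Adar (33 arrays), Ifit2 (33), the peptide transporter Tap1 (29) and Ifi44 (28), and none was below background in a whole group.

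**Figure D1:**
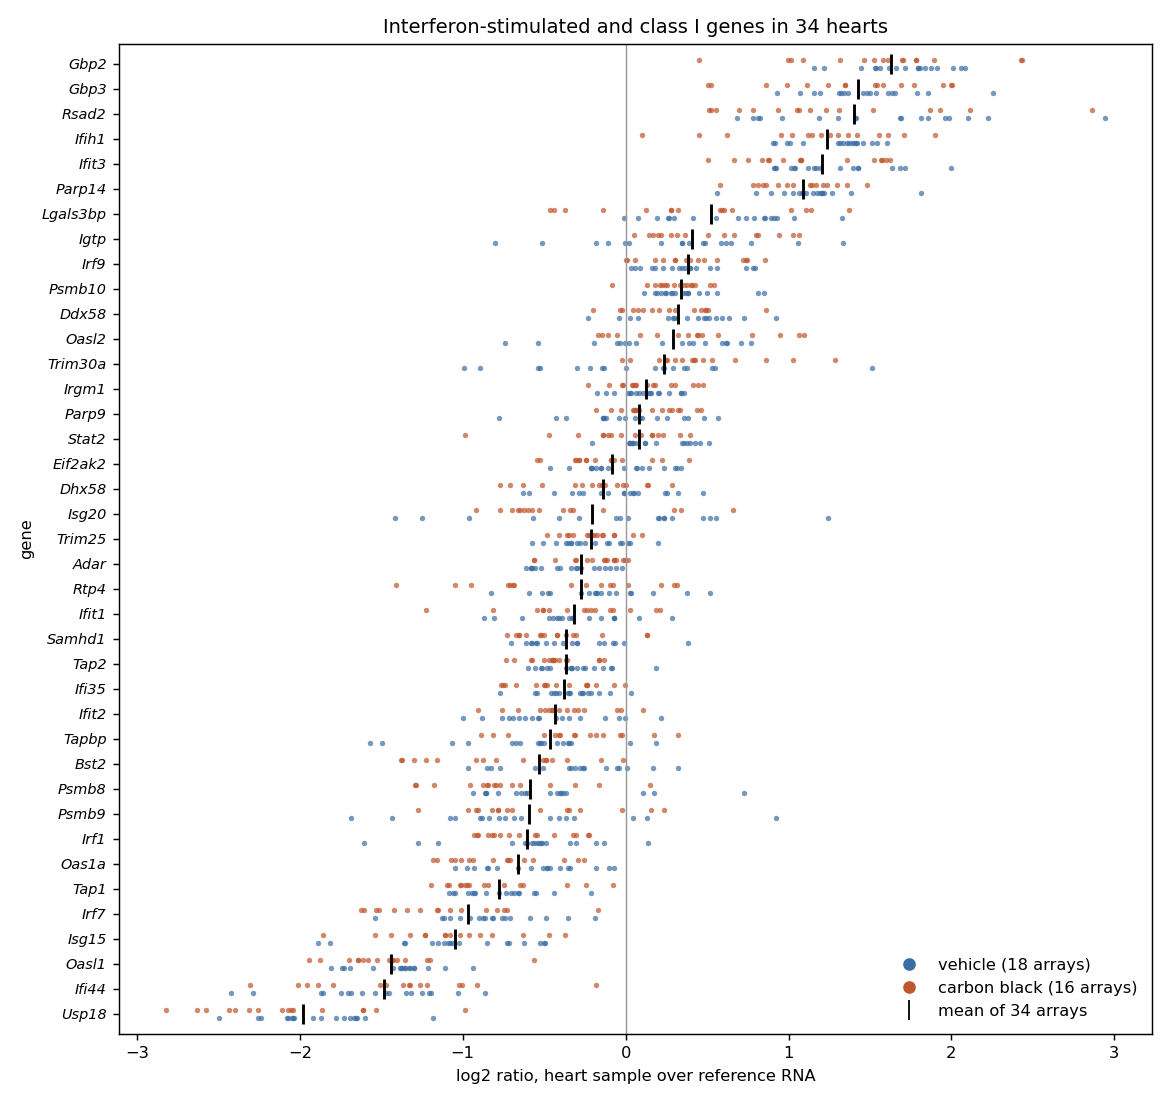
Log2 ratio of heart sample over reference RNA (x axis) for each of the 39 tested genes (rows, ordered by mean) on 18 vehicle and 16 carbon black arrays (points), with the mean of 34 arrays as a bar. The means run from -1.98 for Usp18 to 1.63 for Gbp2, and the points of both arms overlap in every row.

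The spread between hearts of 1 group was uneven. The residual standard deviation of the log2 ratio was largest for Rsad2 (0.64), the exonuclease Isg20 (0.61), the immunoproteasome subunit Psmb9 (0.50), Ifi44 (0.47) and the ubiquitin ligase Trim30a (0.46). It was smallest for the GTPase Irgm1 (0.14). In vehicle hearts at day 28 Rsad2 ran from 0.96 to 2.95 with a median of 1.75, and in carbon black hearts of that day it was 1.05, 0.94, 1.52, 1.23 and 2.86. Both groups thus held hearts at both ends of the range. Of the 39 genes, 29 had a spread above that of the median gene on the array.

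Promoter windows show which of these genes carry the 2 elements within a short distance of their start. RefSeq promoter windows on GRCm38.p6, from 250 bases before to 50 after the start, were given for 35 of the 43 genes. The ISRE core was searched as GAAA, any 2 bases and GAAA again, and GAS as TTCNNNGAA, each on both strands, and matches may overlap each other. The ISRE core stood in a window of 15 of the 35 genes (42.9%) and in 3.99% of all 27025 genes with a window. GAS stood in 11 of the 35 (31.4%) and in 9.55% of all genes. A match is a run of letters and not a measured binding site, and windows without one say nothing about binding elsewhere. The stretches that follow were chosen because the values below turn on these genes. Bst2 (chr8:71537473-71537622, minus strand) had a GAS match that overlaps a pair of ISRE matches, and Isg15 (chr4:156200819-156200918, minus strand) had 3 overlapping ISRE matches. Ifit1 (chr19:34640764-34640888, plus strand) had 2 separate ISRE matches and Gbp3 (chr3:142559974-142560043, plus strand) 2 overlapping ones, all on the opposite strand, so that they read TTTC, 2 bases and TTTC here. Psmb8 (chr17:34198075-34198194, plus strand) had a GAS match only. Capitals mark the matches, and each sequence is written 5′ to 3′ on the strand of its gene, ending at the last base before the start.
Bst2: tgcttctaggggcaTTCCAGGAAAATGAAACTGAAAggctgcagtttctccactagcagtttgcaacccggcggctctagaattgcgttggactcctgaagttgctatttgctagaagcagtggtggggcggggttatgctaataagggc
Isg15: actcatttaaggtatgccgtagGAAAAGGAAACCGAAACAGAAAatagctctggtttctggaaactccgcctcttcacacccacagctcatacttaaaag
Ifit1: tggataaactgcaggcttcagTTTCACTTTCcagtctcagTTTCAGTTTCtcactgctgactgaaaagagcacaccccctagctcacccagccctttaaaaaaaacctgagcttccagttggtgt
Gbp3: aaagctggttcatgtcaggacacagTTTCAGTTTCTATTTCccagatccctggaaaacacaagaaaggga
Psmb8: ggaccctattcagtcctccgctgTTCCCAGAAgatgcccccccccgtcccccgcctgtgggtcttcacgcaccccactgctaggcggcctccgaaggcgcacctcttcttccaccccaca

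Among the transcription factors and their feedback regulator, 5 genes were measured and none passed in any comparison. At day 1 all 5 were below 0 in carbon black minus vehicle, with a median of -0.20 on the log2 scale. All 5 were above 0 when each array was centred on its median in place of loess (0.05 for Stat2 to 0.32 for Irf1). That scaling put the median of all genes at 0.21. Relative to it Stat2 was -0.16, Irf7 -0.12, Irf9 -0.06, Usp18 -0.03 and Irf1 0.11. Stat2, which binds ISRE together with Irf9, ran from -0.21 to 0.42 with a median of 0.12 in vehicle hearts of day 1 and from -0.47 to 0.06 with a median of -0.12 in carbon black hearts. The groups overlapped, and the difference was -0.32 ± 0.15 (SE; limma, adjusted p = 0.663). Stat2 at day 28 was -0.35 ± 0.15 (adjusted p = 1), where carbon black replicate 5 lay at -0.99 and the other 4 carbon black hearts between -0.14 and 0.16.

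Irf9, the DNA-binding partner of Stat2, had the smallest unadjusted p at day 3. In carbon black hearts of day 3 its log2 ratios were 0.85, 0.56, 0.74, 0.75 and 0.72. In vehicle hearts they ran from 0.09 to 0.78 with a median of 0.35, so that 1 vehicle heart reached into the range of the exposed ones. The difference was 0.35 ± 0.12 (limma, adjusted p = 0.346). It was 0.18 without the 3 vehicle arrays of day 3 that had high liver markers (adjusted p = 0.931). Their liver scores were 2.515, 3.831 and 3.087. Carbon black replicates 1 and 3 of day 3, at 2.25 and 2.665, were kept, so this setting left out high liver scores in the vehicle group only. A second, dimmer Irf9 probe, well above background on 10 of the arrays, gave 0.10. At day 1 the difference of Irf9 was -0.18, and the change of the carbon black effect from day 1 to day 3 was 0.53 ± 0.17 (adjusted p = 1).

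Irf7 ran from -1.01 to -0.49 with a median of -0.73 in vehicle hearts of day 28. The 5 carbon black hearts of that day were at -0.75, -1.63, -1.26, -1.01 and -1.42, all below the vehicle mean, and the groups overlapped. The difference was -0.47 ± 0.21 (limma, adjusted p = 1), and for the mean of the 3 days it was -0.29 ± 0.12 (adjusted p = 0.178). Without carbon black day 1 replicate 6, whose Irf7 value of -0.17 was the highest of its group, the mean of the 3 days was -0.36 and the adjusted p 0.0438, and over all alternatives the adjusted p ran from 0.024 to 0.869. Usp18 was -0.18 and Irf1, an activator that interferon gamma induces, -0.03 for the mean of the 3 days.

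The 8 sensors and double-stranded RNA enzymes had a median difference of -0.10 at day 1, -0.04 at day 3 and -0.02 at day 28, and none passed. Oasl2, a relative of the oligoadenylate synthetases, was 0.57, 0.32, 1.1, 0.78 and 0.45 in carbon black hearts of day 3. Vehicle hearts of day 3 ran from -0.74 to 0.59 with a median of 0.20, and the difference was 0.53 ± 0.22 (limma, adjusted p = 0.367). Ifih1 ran from 0.99 to 1.42 with a median of 1.35 in vehicle hearts of day 1 and from 0.10 to 1.42 with a median of 0.88 in carbon black hearts. Of the 6 exposed hearts, 3 lay under every vehicle heart, and the difference was -0.40 ± 0.18 (limma, adjusted p = 0.673). The oligoadenylate synthetase Oas1a, which makes the activator of RNase L, was -0.21 ± 0.10 for the mean of the 3 days (adjusted p = 0.268). The remaining sensors Ddx58, Dhx58, Oasl1, Eif2ak2 and Adar lay between -0.30 and 0.21 in the 3 day comparisons.

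Among the 12 measured antiviral effectors, Bst2 and Rtp4 had the lowest differences at day 1. Bst2, or tetherin, which ties budding virus to the cell surface, ran from -0.85 to 0.01 with a median of -0.53 in vehicle hearts of day 1. In carbon black hearts of day 1 it ran from -1.38 to -0.45 with a median of -1.26. Of the 6 exposed hearts, 5 lay below every vehicle heart, and replicate 3, at -0.45, lay among them. The difference was -0.67 ± 0.19 (SE; 95% interval -1.05 to -0.29; limma, adjusted p = 0.451). At day 3 the carbon black hearts were at -0.15, -0.49, -0.02, -0.36 and -0.63 and the vehicle hearts between -0.77 and 0.32. The difference was -0.10 (0.36 under median centring, and 0.07 there relative to the median of all genes). At day 28 they were at -0.50, -0.92, -0.88, -0.79 and -0.49, all below the vehicle mean of -0.29, a difference of -0.42 ± 0.20 (adjusted p = 1).

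Averaged over the 3 days, Bst2 was -0.40 ± 0.11 (95% interval -0.62 to -0.17; limma, adjusted p = 0.0521). Leaving out single arrays moved it across the threshold. It passed, at -0.38 to -0.45 with adjusted p between 0.0241 and 0.0497, when 1 of 8 arrays was left out. Of these, 3 were day 1 controls (replicates 1, 2 and 6), 2 were exposed hearts of day 1 (replicates 3 and 6), 2 were day 3 controls (replicates 2 and 3) and 1 was a day 28 control (replicate 2). It passed at -0.41 in the values deposited by the authors (adjusted p = 0.0265). With each array centred on its median in place of loess it was -0.02 (adjusted p = 0.937), a setting that put the median of all genes at 0.19, so that Bst2 lay at -0.21 relative to it. Over all alternatives the adjusted p ran from 0.0241 to 0.937. With scan day as a block it was -0.37 (adjusted p = 0.124), with slide as a block -0.34 (adjusted p = 0.295) and with position on the slide as a block -0.38 (adjusted p = 0.618). Position 4 held only carbon black arrays and 12 of the 18 vehicle arrays lay at position 1, so the block by position leaves little to compare. Within the 10 pairs of a vehicle and a carbon black array of 1 day that shared a slide, Bst2 was lower in the exposed heart in 9, with a median of -0.35 and a range from -1.18 to 0.76. In all 10 pairs the vehicle array lay at position 1 and the carbon black array at position 4. Exposure and position cannot be told apart in these pairs.

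Rtp4, a chaperone of receptors that interferon induces, was the 1 gene of the 39 whose groups did not overlap on a day. At day 1 vehicle hearts ran from -0.59 to 0.03 with a median of -0.37, and carbon black hearts from -1.41 to -0.68 with a median of -0.84. Over all genes 0.359% had groups that did not overlap at day 1, 0.899% at day 3 and 0.379% at day 28. The difference of Rtp4 was -0.63 ± 0.18 (limma, adjusted p = 0.458). At day 3 it was 0.19, with the 5 exposed hearts between -0.15 and 0.30 inside a vehicle range of -0.83 to 0.52. At day 28 it was -0.12 (0.08 under median centring, and -0.004 there relative to the median of all genes). The change of the carbon black effect from day 1 to day 3 was 0.81 ± 0.26 (adjusted p = 1).

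Several marker scores had different ranges in the 2 groups of day 1. The macrophage score over 9 of 10 listed markers ran from -0.34 to 0.25 in vehicle hearts and from -1.32 to 0.22 in carbon black hearts. Fibroblast markers (8 of 8) ran from -0.83 to 0.44 and from -2.03 to 0.08, endothelial markers (8 of 8) from -0.31 to 0.23 and from -2.18 to 0.17, and smooth muscle and pericyte markers (7 of 7) from -1.11 to 0.42 and from -2.23 to 0.05. Without carbon black day 1 replicate 6 the exposed endothelial scores ran from -0.18 to 0.17 and the smooth muscle scores from -0.37 to 0.05. Both lay inside the vehicle ranges. The exposed macrophage scores then ran from -0.95 to 0.22 and the fibroblast scores from -0.98 to 0.08. Liver markers (5 of 7) ran from -0.04 to 2.51 in vehicle hearts, with a mean of 1.49, and from -1.03 to 1.37 in carbon black hearts, with a mean of 0.01. T and B cell markers (7 of 9) ran from -0.20 to 0.24 and from -0.25 to 1.33. The part of these markers in the day 1 values of Bst2, Rtp4, Gbp2 and Ifih1 was not tested. Without carbon black day 1 replicate 6, which held the lowest macrophage, fibroblast and endothelial scores, the day 1 differences were -0.63 for Bst2, -0.67 for Rtp4, -0.31 for Gbp2 and -0.33 for Gbp3. At day 3 airway and alveolar markers (3 of 6) averaged 1.25 in vehicle hearts (-0.18 to 3.92) and 0.35 in carbon black hearts (-0.03 to 1.38). Cardiomyocyte markers averaged -0.48 and 0.05 at day 3, and -0.21 and 0.22 at day 28. Endothelial means were closer, at 0.07 and 0.11 at day 3. The part of these markers in the later values was not tested.

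None of the other effectors passed in any comparison. For Isg15, the ubiquitin-like modifier whose promoter holds 3 ISRE matches, the differences were -0.10, 0.34 and -0.31 at days 1, 3 and 28. For Ifit1 they were -0.12, 0.30 and -0.14, for Ifit2 -0.03, 0.18 and 0.07, and for Ifit3 -0.34, 0.06 and -0.16. A second, dimmer Ifit2 probe, well above background on 19 arrays, gave 0.108, -0.078 and -0.148, so the direction of Ifit2 is not settled. Isg20 was below 0 on all days (-0.37, -0.27 and -0.30), as was Rsad2 (-0.46, -0.11 and -0.24), and both had standard errors above 0.33. A second Isg20 probe, well above background on all 34 arrays, gave -0.03, 0.09 and -0.07, so the direction of Isg20 is not settled. Ifi44 was 0.41 at day 3 (adjusted p = 0.59), and Lgals3bp, a secreted glycoprotein, was -0.42 at day 1 (adjusted p = 0.731). The change of the carbon black effect from day 3 to day 28 was -0.65 ± 0.32 for Isg15 (limma, adjusted p = 1).

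Of the 4 measured ubiquitin ligases and PARPs, all were above 0 at day 3 by their brightest probe, and Trim30a and Parp9 were so on all 3 days. A second Parp14 probe, well above background on all 34 arrays, gave -0.265, -0.204 and -0.232 on days 1, 3 and 28. The direction of Parp14 at day 3 is therefore not settled. Trim30a, which restrains Toll-like receptor signalling, was 0.35, 0.53, 0.86, 0.42 and 0.47 in carbon black hearts of day 3. Vehicle hearts of day 3 ran from -0.99 to 0.55 with a median of -0.18, so 2 vehicle hearts lay inside the exposed range. The difference was 0.69 ± 0.27 (limma, adjusted p = 0.351), against 0.38 at day 1 and 0.28 at day 28. The mean of the 3 days was 0.45 ± 0.15 (limma, adjusted p = 0.0935). The difference was positive in 8 of the 10 same-slide pairs, in which exposure and position on the slide cannot be told apart. Without control day 28 replicate 6, at 1.51 the highest of all 34 hearts, the mean of the 3 days was 0.53 and the adjusted p 0.0431, and over all alternatives the adjusted p ran from 0.0415 to 0.766. A second Trim30a probe gave 0.28 for the mean of the 3 days, and 0.27, 0.59 and -0.02 on days 1, 3 and 28. The mouse has several close Trim30 copies, and whether the probes tell them apart was not tested. Parp9 was 0.14, 0.20 and 0.09 on the 3 days. Trim25, the ligase that activates the sensor Ddx58, was 0.05, 0.11 and -0.10 on the 3 days.

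The 4 GTPases had a median difference of -0.23 at day 1 and 0.27 at day 3. Gbp3 ran from 0.93 to 1.65 with a median of 1.32 in vehicle hearts of day 1 and from 0.50 to 1.35 with a median of 0.93 in carbon black hearts, a difference of -0.41 ± 0.16 (limma, adjusted p = 0.611). At day 3 the carbon black hearts were at 2.0, 1.58, 2.0, 1.95 and 1.53, all above the vehicle mean of 1.48. The carbon black effect on Gbp3 changed by 0.74 ± 0.24 from day 1 to day 3 (adjusted p = 1). Gbp2 was -0.46 ± 0.21 at day 1 (adjusted p = 0.661), 0.04 at day 3 and 0.03 at day 28. Irgm1, which guards the cell's own membranes from the other GTPases, was 0.21 ± 0.09 at day 3 (adjusted p = 0.399), and Igtp was 0.47.

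The 6 class I genes, namely the immunoproteasome subunits Psmb8, Psmb9 and Psmb10, the peptide transporter Tap1 and Tap2 and the loading factor Tapbp, had medians of 0.01, 0.04 and -0.15 on days 1, 3 and 28. Tapbp, or tapasin, was 0.54 ± 0.24 at day 3 (limma, adjusted p = 0.397), with exposed hearts between -0.82 and 0.32 and vehicle hearts between -1.49 and -0.34. A second Tapbp probe gave 0.23. Psmb8 was -0.30, -0.14 and -0.35 on the 3 days by its brighter probe, and 0.16, 0.58 and -0.02 by its other probe, so its direction is not settled. Among the 13 genes with more than 1 passing probe, the probes had the same sign for 9 at day 1, 8 at day 3 and 9 at day 28. Tap2 was -0.20 at day 28 (adjusted p = 1) and 0.22 ± 0.11 between the vehicle hearts of day 3 and day 1 (adjusted p = 1).

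**Figure D2:**
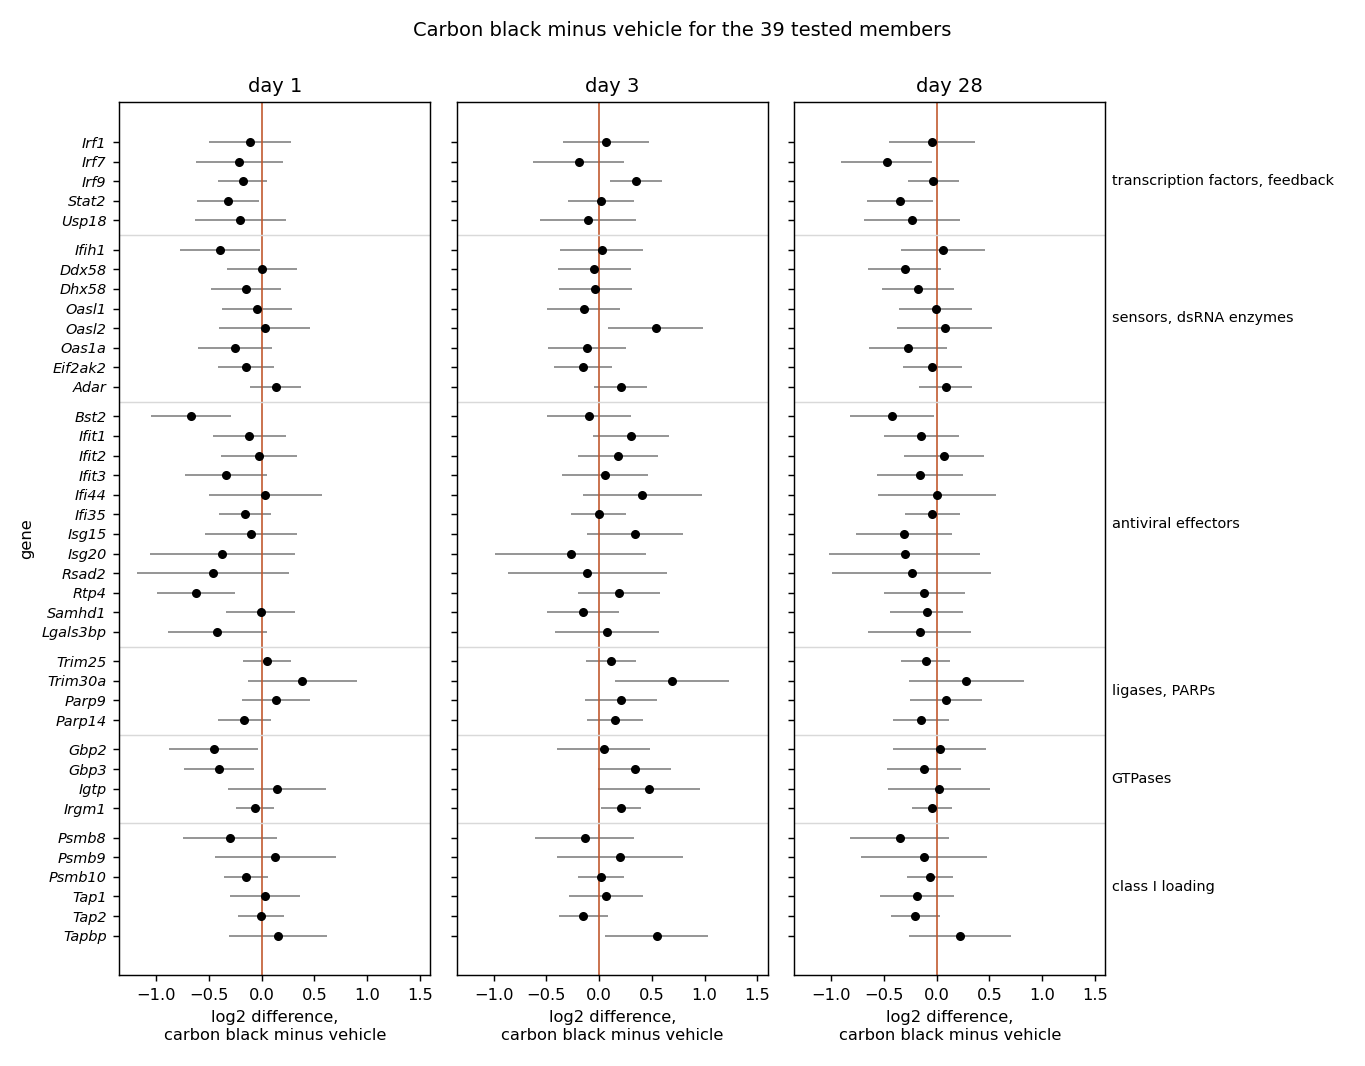
Log2 difference of carbon black minus vehicle (x axis, points) with its 95% interval (bars) for the 39 genes, grouped by role, at days 1, 3 and 28. Intervals that exclude 0 belong to 6 genes at day 1, all below 0, to 5 at day 3, all above 0, and to 3 at day 28, all below 0.

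**Figure D3:**
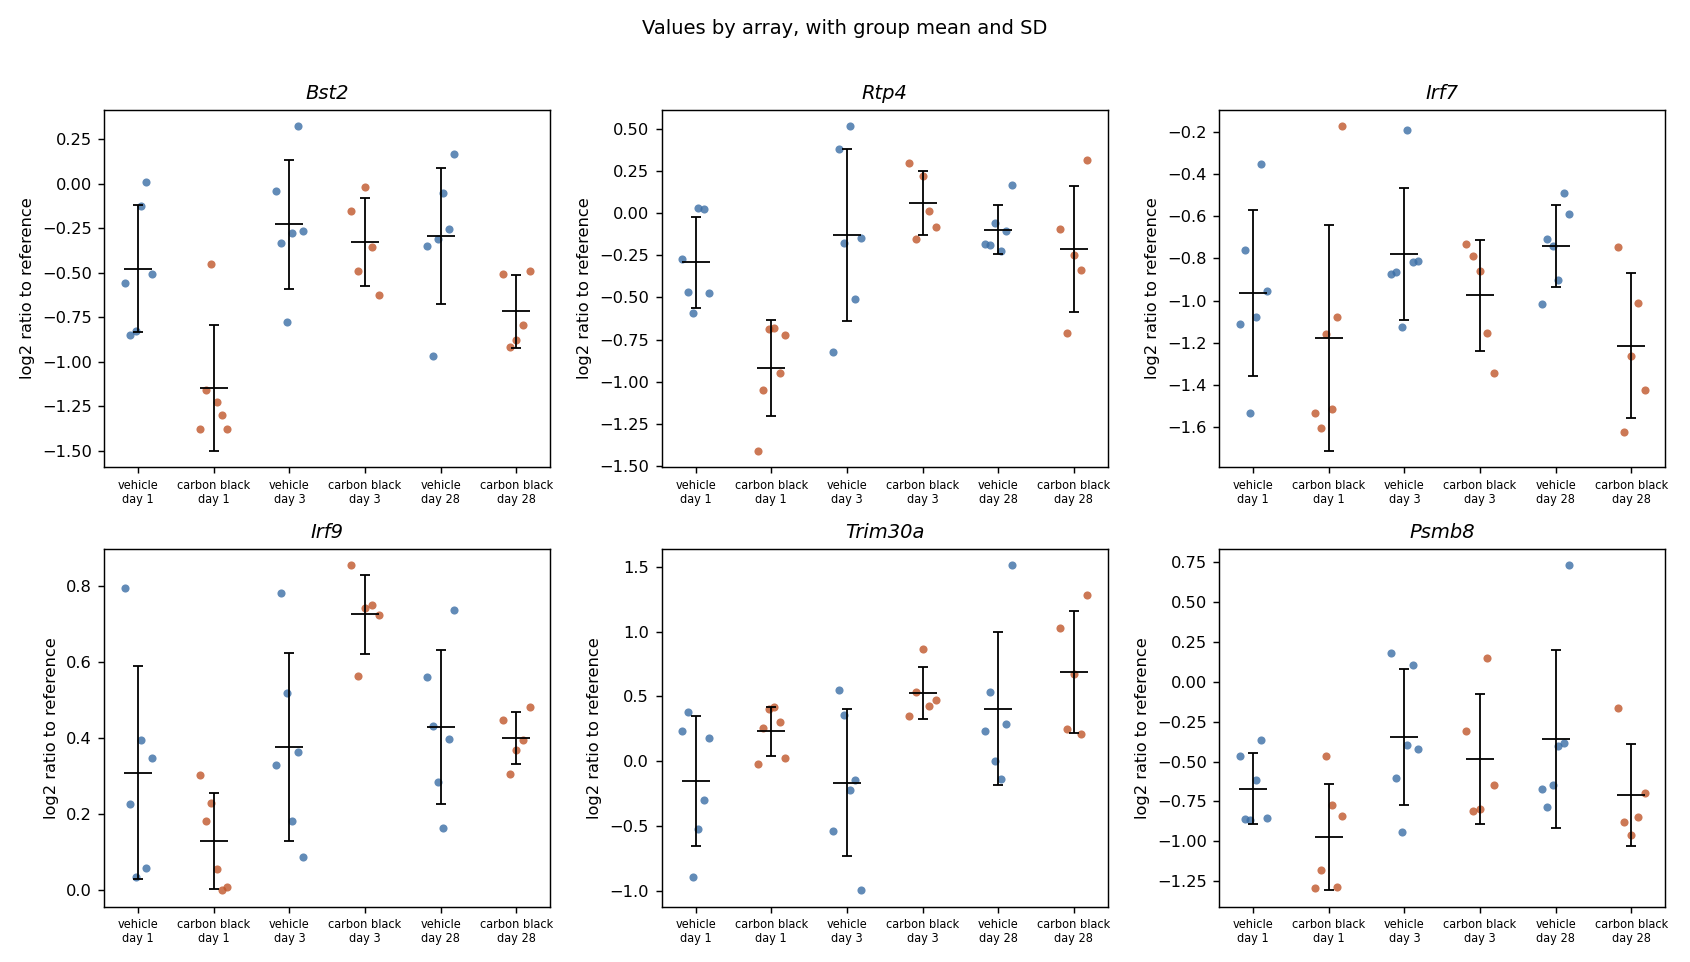
Log2 ratio to the reference (y axis) of 6 genes on each array (points) in the 6 groups, with the group mean (bar) and SD (whiskers). The 6 carbon black hearts of day 1 lie below all vehicle hearts of that day for Rtp4, and 5 of 6 do so for Bst2.

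Counted over the 39 genes, the differences leaned down at day 1, up at day 3 and down at day 28. At day 1, 28 of 39 lay below 0 (median -0.15), 6 of them at an unadjusted p under 0.05, where 51.0% of all genes lay below 0 and 3.89% were lower at that level. None was higher at that level (3.32% of all genes). At day 3, 14 of 39 lay below 0 (median 0.07) and 5 were higher at an unadjusted p under 0.05, against 47.1% and 6.96% of all genes, while none was lower (4.14%). At day 28, 29 of 39 lay below 0 (median -0.12) and 3 were lower at that level, against 48.0% and 1.38%, while none was higher (1.6%). For the mean of the 3 days 26 of 39 lay below 0, against 49.6% of all genes. Without control day 28 replicate 6, a heart with many lymphocyte transcripts, the median of day 28 was -0.03. The signs of the differences depended on the scaling. Centring each array on its median in place of loess changed the sign of 22, 14 and 13 of the 39 genes on days 1, 3 and 28. It put the medians of the genes at 0.19, 0.47 and 0.06, but it moved the median of all genes to 0.21, 0.29 and 0.08. Relative to all genes, 10, 8 and 8 of the 39 changed sign. The medians relative to all genes were then -0.02, 0.19 and -0.02, against -0.14, 0.05 and -0.12 with loess. They kept their direction, but lay near 0 on days 1 and 28. Under median centring 22, 8 and 22 of the 39 genes lay below the median of all genes on days 1, 3 and 28. Bst2 at day 1 was -0.42 and Rtp4 -0.43 relative to the median of all genes under that scaling.

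The 3 day comparisons use separate animals, so they can be set against each other directly. For the change of the carbon black effect from day 1 to day 3, 5 of 39 genes lay below 0 (43.9% of all genes), with a median of 0.21, and 5 were higher at an unadjusted p under 0.05 (1.14% of all genes) and none lower (1.05%). These were Irf9, Gbp3, Rtp4, Bst2 and Irgm1, all at an adjusted p of 1. From day 3 to day 28, 35 of 39 lay below 0 (52.9% of all genes), with a median of -0.22, and Irf9 (-0.38) and Isg15 were lower at that level (0.535% of all genes) and none was higher (0.677%). From day 1 to day 28, 19 of 39 lay below 0 (47.4% of all genes; median 0.01), and 0 passed an unadjusted p of 0.05 in either direction (0.828% of all genes higher, 0.581% lower). Rtp4 came nearest, at 0.51 ± 0.26 (adjusted p = 1). The first pair of these comparisons share the day 3 arrays.

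Among vehicle hearts alone, 7 of the 39 genes were higher at day 28 than at day 1 at an unadjusted p under 0.05, where 0.667% of all genes were, and 4 lay below 0 (49.4% of all genes). None was lower at that level (0.51%). They were Parp14 (0.28 ± 0.12), Trim30a (0.56), Psmb9 (0.61), Dhx58 (0.35), Oasl2 (0.45), Gbp3 (0.34) and Igtp (0.47), and limma's adjusted p was 1 for each. Control day 28 replicate 6 carried the highest value of its group for all 7, among them Parp14 (1.81), Trim30a (1.51), Psmb9 (0.92) and Gbp3 (2.26). That heart also had the highest T and B cell marker score of all, as described below, and the part of these cells in the difference was not tested. Without it the differences were 0.18 for Parp14, 0.34 for Trim30a, 0.37 for Psmb9, 0.27 for Dhx58, 0.39 for Oasl2, 0.22 for Gbp3 and 0.36 for Igtp. From day 1 to day 3, 8 of 39 lay below 0 (52.1% of all genes; median 0.10), and from day 3 to day 28, 14 of 39 (46.1%; median 0.05, and -0.01 without that heart). At an unadjusted p under 0.05, 1 gene was higher in each of these, Tap2 between days 1 and 3 and Trim30a between days 3 and 28, where 1.39% and 1.43% of all genes were. None was lower, against 0.652% and 3.03%.

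Other genes of the pathway, 84 listed and 68 tested, gave 0 calls in each of the 10 comparisons as well. At an unadjusted p under 0.05, 1 was higher and 9 lower at day 1, where 3.32% and 3.89% of all genes were, and 6 and 2 at day 3 (6.96% and 4.14% of all genes). At day 28 these counts were 0 and 2 (1.6% and 1.38%), and for the mean of the 3 days 5 and 8 (10.8% and 7.49%). Nearest to the threshold was Socs1, the inhibitor of Jak kinases that interferon induces, at -0.58 ± 0.16 for the mean of the 3 days (limma, adjusted p = 0.0521). Stat3 was 0.79 ± 0.21 and Jak1 0.40 ± 0.15 at day 3 (adjusted p = 0.346 for both). Of the receptors, Ifngr1, which binds interferon gamma, was 0.36 and Ifnar2, a chain of the type I receptor, -0.17 for the mean of the 3 days. Of the nucleic acid sensors, Tlr9 was -0.12 and the nuclease Trex1 0.22. The GTPase Tgtp1 was -0.30 and the nuclear body protein Sp110 0.37. The chaperone Calr, which helps class I molecules fold, was -0.24 and the tapasin relative Tapbpl 0.19. The constitutive proteasome subunits, which Psmb8 to Psmb10 replace in the immunoproteasome, were 0.27 for Psmb6 and -0.18 for Psmb7. Adjusted p for these ran from 0.108 upward.

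Hearts of 1 group also differed from each other, and some of the genes varied together. Each array's deviation from its group mean was taken, so that exposure and day play no part, and Pearson correlations were formed between genes over the 34 deviations, which share the array, its depth and the makeup of the section. They are given as descriptions with no test. Over the 741 pairs the median correlation was 0.22, against 0 over pairs of all genes, and 15.2% of pairs exceeded 0.5, against 5.3%. The range was from -0.63 to 0.91, and 169 pairs were below 0. Under median centring the median was 0.64. In the reference channel alone, which holds no RNA of the sampled hearts, the median was 0.1, and 123 pairs exceeded 0.5, against 113 in the ratio. In the sample channel alone the median was 0.18 and 92 pairs exceeded 0.5. The part of the reference channel and of the array itself in these correlations was not tested.

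The highest correlation of a pair was that of Irf7 and Usp18, at 0.91. Irf7 and Oasl1 correlated at 0.82, and Usp18 and Ifi44 at 0.77. The Irf7 and Usp18 value was between 0.74 and 0.93 under the other scalings, 0.87 without carbon black day 1 replicate 6, 0.67 in the sample channel alone and 0.12 in the reference channel alone. Irf7 and Oasl1 correlated at only 0.14 in the sample channel alone, and Usp18 and Ifi44 at 0.13, so those 2 values rest on the ratio. With the share of spots above background, the correlation was -0.49 for Irf7, -0.47 for Usp18 and Ifi44 and -0.36 for Oasl1, and the part of depth was not tested. Endothelial markers (8 of 8 measured) correlated with them at -0.68 for Irf7, -0.70 for Usp18 and -0.74 for Oasl1, and at -0.47, -0.39 and -0.47 without the 2 arrays farthest from the median, 1 of which was carbon black day 1 replicate 6.

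Irf1 and Igtp correlated at 0.84 and Parp14 and Trim30a at 0.85. Irf1 and Irf7 correlated at -0.34 (0.37 under median centring). Isg20 and Rsad2, the genes of largest spread, correlated at 0.80 with each other and at 0.72 in the sample channel alone. Gbp2 and Ifih1 correlated at 0.80, while Ifit2 and Gbp2 were the most opposed pair at -0.63 (-0.07 under median centring). Members of a family were not always alike: Ifit1, Ifit2 and Ifit3 correlated with each other at 0.33 to 0.52, and Oasl1 with Oasl2 at -0.12 (0.55 under median centring).

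**Figure D4:**
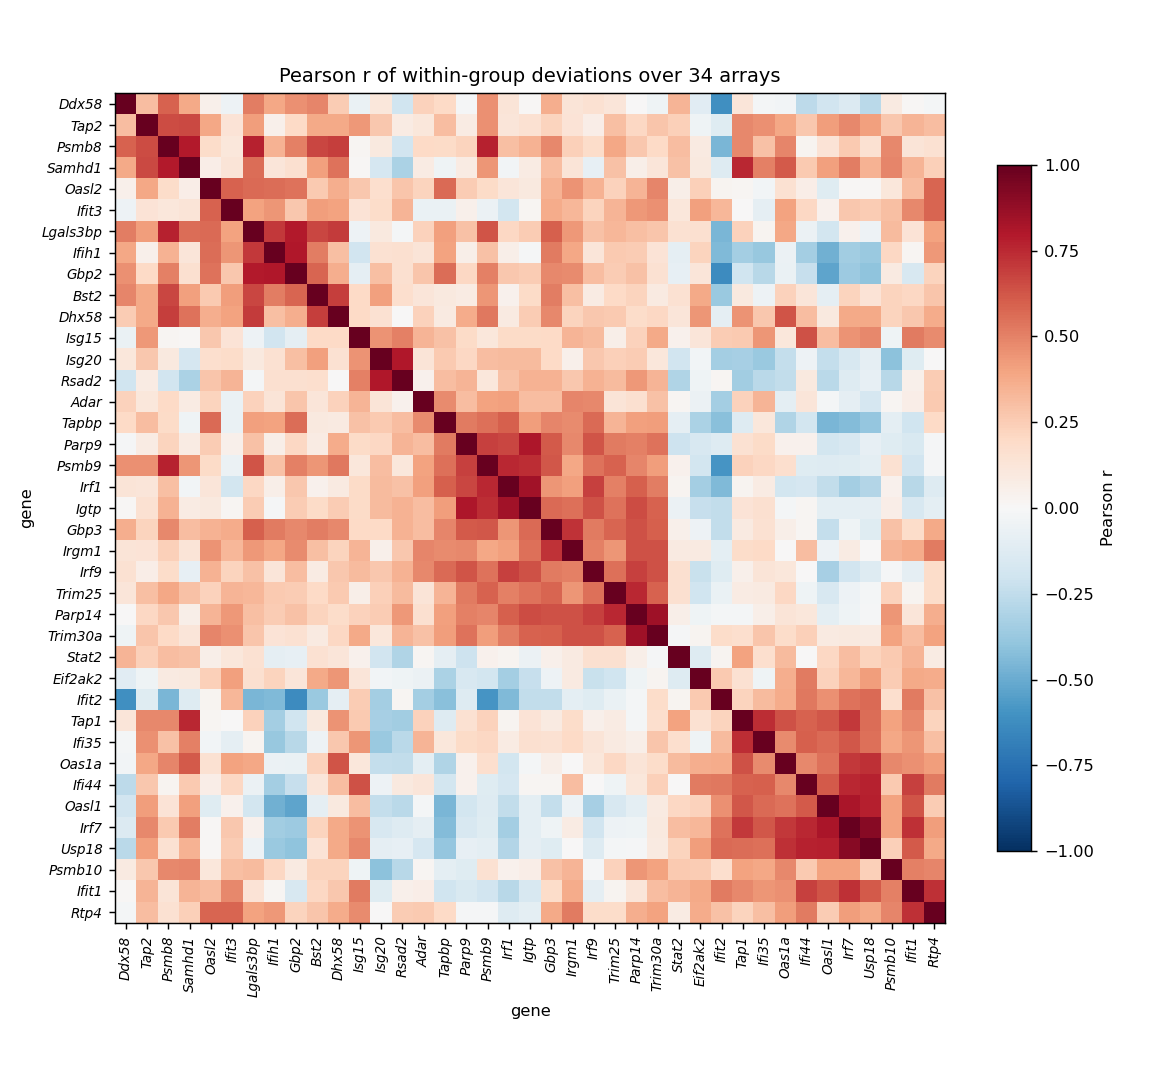
Pearson correlation (colour, from -1 to 1) between the 39 genes over the deviations of 34 arrays from their group means, with genes ordered by average-linkage clustering. A block with Irf7, Usp18, Oasl1 and Ifi44 lies at the lower right and another with Irf1, Igtp, Parp14 and Trim30a at the centre.

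Some of the class I genes followed lymphocyte markers. Over 34 arrays, with a score from 7 of 9 listed T and B cell markers, the correlation of within-group deviations was 0.91 for Psmb8 (0.86 without the 2 arrays farthest from the median), 0.77 for Psmb9 (0.67) and 0.70 for Tap2 (0.45). It was 0.51 for Psmb10 (0.31), 0.50 for Tap1 (0.30) and 0.33 for Tapbp (0.17). Outside the class I genes it was 0.78 for Samhd1 (0.63) and 0.70 for Lgals3bp (0.69). It was -0.40 for Ifit2, -0.12 for Rsad2 and -0.01 for Ifi44. None of the 7 markers was at 0, and they were well above background on 25 to 34 arrays. The score ran from -0.20 to 0.24 in vehicle and -0.25 to 1.33 in carbon black hearts of day 1, from -0.32 to 0.90 and -0.34 to 1.68 at day 3, and from -0.41 to 2.97 and -0.41 to 1.77 at day 28. The part of lymphocytes in the class I values was not tested. The Psmb8 and Ifit2 values here are those of their brighter probes, and the other probe of each was not set against the score. Psmb8 and Psmb9 correlated at 0.77.

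Psmb9 and Tap1 correlated at 0.23 over the same deviations (0.33 to 0.59 under the other scalings, and 0.12 without control day 28 replicate 6), although their starts face away from each other and lie 225 bases apart, so that both read from the stretch between them. The stretch is shown because it is shared by both (GRCm38.p6, chr17:34187331-34187555, on the strand of Tap1). It held no match to either motif as spelled here, and Tap1 was the dimmer gene, well above background on 29 arrays.
Psmb9 and Tap1: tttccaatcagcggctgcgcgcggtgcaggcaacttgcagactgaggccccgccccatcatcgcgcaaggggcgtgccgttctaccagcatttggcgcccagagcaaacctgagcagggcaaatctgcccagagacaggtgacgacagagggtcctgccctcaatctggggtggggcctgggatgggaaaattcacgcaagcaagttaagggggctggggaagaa

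**Figure D5:**
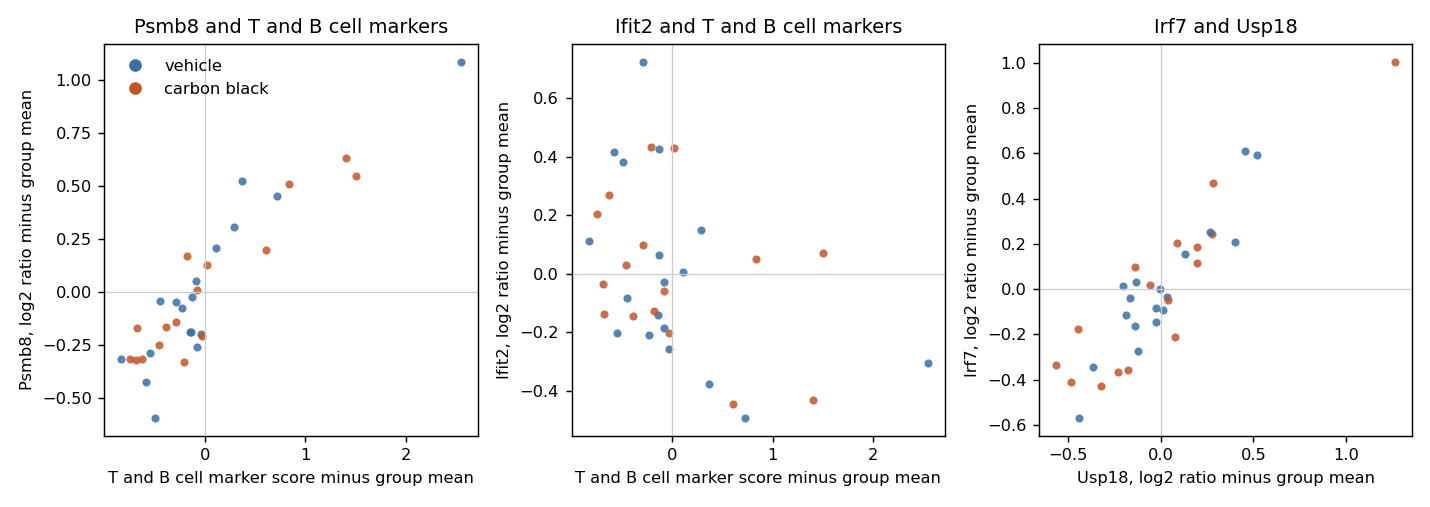
Deviations from the group mean on 34 arrays: Psmb8 and Ifit2 (y axes, log2) against the T and B cell marker score (x axes, mean log2 deviation), and Irf7 against Usp18 (both log2). By their brighter probes, Psmb8 follows the score (r = 0.91) and Ifit2 does not (r = -0.40). Irf7 follows Usp18 (r = 0.91).

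Control day 28 replicate 6 stood highest over the whole list. On that array 37 of 39 genes lay above their group mean, 10 of them at the highest deviation of all 34 arrays, with Psmb9 (1.24), Trim30a (1.1) and Psmb8 (1.08) in front. Its T and B cell score was 2.97 and its NK cell score, from 2 of 5 listed markers, 0.96. The exceptions were Rsad2 (-0.07) and Ifit2 (-0.30). Without this array the median correlation between pairs was 0.16 and that of Psmb8 and Psmb9 0.69.

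Outside the list, the 5 genes whose within-group deviations were most like the mean of the 39 were Zbp1, Ifitm6, Evi2a and N4bp2l1 (each 0.80 over 34 arrays) and Dennd1c (0.77). Without the 2 arrays farthest from the median, which were control day 28 replicate 6 and carbon black day 28 replicate 5, the values were 0.69 to 0.74.

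The genes were also set side by side by their promoter letters. The 15 genes with an ISRE match had a median difference of -0.26 at day 1, with 12 of them below 0, and the 18 tested genes with a window and no match had -0.04, with 11 below 0. At day 3 the medians were 0.04 and 0.07, and at day 28 -0.14 and -0.05. Bst2, Gbp2, Gbp3, Ifih1 and Stat2, which had unadjusted p-values under 0.05 in limma at day 1, are all among the 15, and Rtp4 had no window in the table. Of the genes at that level at day 3, Trim30a and Irgm1 had a match and Irf9, Oasl2 and Tapbp had none. At day 28 Bst2 and Stat2 had a match and Irf7 had none. A link between a match and the differences was not tested.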

How the data were processed

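Heart RNA and reference RNA were read on 2-colour Agilent arrays. Per the file headers, the authors scanned them with Agilent Feature Extraction 10.1.1.1 on a design annotated to mm8, and the deposited files give foreground and background intensity and quality flags for each spot. The authors' deposited value table holds log2 ratios whose normalization is not given in the sources used here. Its columns had medians from -0.055 to -0.034 and correlated at 0.996 to 0.998 (slope 0.988 to 0.996) with log2 ratios made here by loess without background correction. Scale, centring and direction (Cy5 over Cy3) were taken from that match.

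Median signals were corrected with normexp (offset 50) and normalised by loess within arrays, and spots flagged as outliers were left out. Probes entered if, in some group, a share of 0.5 or more of the arrays had a heart signal well above background, with at most 3 missing values, and the brightest probe stood for a gene (25249 of 41174 probes, 19798 genes, 12348 named). Gene names came from RefSeq accessions in a table of assembly GRCm38.p6, which differs from the design's build, so only promoter windows are given coordinates. The 6 group means were fitted with limma 3.58.1 in R 4.3.3 (figures: matplotlib 3.10.9 under python 3.11.15), with 28 residual degrees of freedom, Benjamini-Hochberg adjustment over all genes and a threshold of 0.05. The tests were checked on simulated data.

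The genes and lists were chosen with earlier results of these data known. Named with values were genes past the threshold or, where fewer than 4 passed, the 4 of smallest unadjusted p in a comparison, the 5 highest and lowest levels, the 5 largest spreads, 2 genes of each other pathway list and the 5 most alike other genes. A few more are named to complete a family. Replicates are separate mice, numbered in deposit order. Their number limits the precision. Alternatives were other scalings, signals, filters, blocks by slide, scan day and position, and leaving out arrays.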

Additional observations from a re-analysis of the deposited data

Results flagged for a closer look

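In 22 of 234 groups of values examined (9.4%), the highest or lowest heart stood apart from the rest of its group by more than the 95% critical value of Dixon's test, where chance alone gives about 1 in 20. Most of them came from 5 arrays. Control day 28 replicate 6 was highest of its group for Psmb8 (0.73), Psmb9 (0.92), Irf1 (0.14), Ddx58 (0.92), Parp14 (1.81) and Samhd1 (0.38). Carbon black day 1 replicate 6 was highest for Irf7 (-0.17), Usp18 (-0.99), Oasl1 (-0.56) and Tap1 (-0.08). Control day 3 replicate 4 was highest for Irf7 (-0.19), Oasl1 (-0.94) and Psmb10 (0.85). Carbon black day 28 replicate 5 was highest for Isg20 (0.66) and Gbp2 (2.43) and lowest for Stat2 (-0.99). Control day 1 replicate 5 was lowest for Irf1 (-1.61) and Parp9 (-0.78). Single values were those of Bst2 in carbon black day 1 replicate 3 (-0.45, against -1.16 or lower in the other 5), Psmb10 in carbon black day 1 replicate 1 (-0.09), Tap2 in carbon black day 3 replicate 4 (-0.14) and Ifi44 in carbon black day 3 replicate 3 (-1.0). All values are log2 ratios to the reference.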

How the results depend on the processing

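The number of genes past the threshold was 0 of 39 in 9 of the comparisons under every alternative run. For the mean of the 3 days it was 1 with median centring (Trim30a), 3 without background correction (Bst2, Irf7, Trim30a), 4 in the authors' values (these and Tap2), 1 with genes well above background on all 34 arrays (Bst2), 2 without the 5 arrays of low atrial score (Bst2, Isg20) and 0 to 2 when each array was left out in turn. It was 0 under the others. Of the 4 genes of smallest p in each comparison, 1 changed sign: Stat2 for the mean of the 3 days was 0.11 with median centring against -0.22. Relative to the median of all genes Stat2 was -0.08 with median centring. Over all 39 genes median centring changed the sign of 22, 14 and 13 on days 1, 3 and 28 and of 24 for the mean of the 3 days, and of 10, 8, 8 and 8 relative to the median of all genes. Median centring also moved the median of the genes to 0.19, 0.47 and 0.06 on days 1, 3 and 28 and to 0.20 for the mean of the 3 days, and that for the change of the carbon black effect from day 1 to day 28 to -0.17 and from day 3 to day 28 to -0.46. The cause of these shifts was not tested. Slide as a random block had a correlation of 0.054. As fixed blocks, slide left 15, scan day 22 and position 25 residual degrees of freedom. No paired analysis was possible by replicate number, because the labels give the groups no shared numbers. Arrays that shared a slide were compared through the slide block and the 10 same-day pairs, and in these pairs exposure went with position on the slide. A difference as small as the standard errors of the members, 0.09 to 0.37 on single days, is not detectable with 5 or 6 hearts a group.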
